A study of Mus musculus with 10 samples.

Results

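The 8 genes Edem1, Os9, Sel1l, Syvn1, Herpud1, Derl1, Derl2 and Vcp encode core parts of the machinery for endoplasmic reticulum (ER)-associated degradation. They were taken by gene symbol from the 52636 genes of a table of hippocampal expression in mice, and each symbol matched 1 row. All 8 were among the 15471 genes tested, that is, genes with a mean of at least 0.5 FPKM (fragments per kilobase of transcript, on the scale the authors deposited). They were selected on values of this same contrast, the FPKM of the 10 libraries, with its results known, so their differences between genotypes are given as a description, and nothing is supported with them.

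The study sequenced hippocampal RNA from 3-month-old C57BL/6 mice of 2 genotypes: 5 libraries from mice lacking the thyrotropin receptor (Tshr-/-) and 5 from wild-type mice. The thyrotropin receptor is the G protein-coupled receptor through which the pituitary hormone TSH drives the thyroid gland. The exon removed in the Tshr-/- allele, the thyroid state of the mice, any hormone supplement and any pooling of animals are not stated in these sources. The labels call the libraries biological replicates without naming animals, so the p-values measure the spread between these 10 libraries.

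ER-associated degradation removes proteins that fail to fold in the ER. Lectins and mannosidases (the OS9 and EDEM proteins) pick out the misfolded glycoproteins, the membrane ligase HRD1 (gene Syvn1) with its partner SEL1L and the derlins passes them through the membrane and ubiquitinates them, and the ATPase VCP pulls them into the cytosol for the proteasome. Several of these genes are targets of the unfolded protein response, the transcriptional programme set off by misfolded protein in the ER. In neurons that secrete peptide hormones the SEL1L-HRD1 complex is known to be needed for prohormone maturation.

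The 10 libraries held 23899650 to 33529811 reads on genes, with 25744854 to 28332278 in the Tshr-/- group and 23899650 to 33529811 in the wild-type group. Tshr itself was close to the detection limit, with a total of 7 reads in Tshr-/- and 32 in wild type (0.00861 ± 0.0136 and 0.0372 ± 0.0220 FPKM, SD, n = 5 each; two-sided exact permutation p = 0.0556), so it checks the labels weakly. All 7 hippocampal markers were expressed, and all 7 were lower on average in Tshr-/-, 4 with an unadjusted limma p below 0.05. Their summed level ranged over 262 to 404 FPKM in Tshr-/- and 362 to 492 FPKM in wild-type libraries. Transcripts of neighbouring tissue varied more: 8 thalamic and habenular markers summed to 31.2 to 203 FPKM in Tshr-/- and 17.4 to 89.9 FPKM in wild type, and 7 choroid plexus markers to 5.66 to 2244 FPKM and 3.81 to 88.9 FPKM. Markers of meninges and ependyma were higher on average in Tshr-/- for 4 of 4 genes each (3 and 2 with an unadjusted p below 0.05; sums of 3.97 to 8.83 against 2.09 to 5.41 FPKM and 6.06 to 20.9 against 4.98 to 10.2 FPKM). The 3 endothelial markers were all lower (29.4 to 54.9 against 48.2 to 60.9 FPKM). Tshr-/- libraries 1 and 2 were the highest in thalamic markers and Tshr-/- library 4 in choroid plexus markers, where Ttr, the transthyretin gene, reached 2189 FPKM, while the thalamic marker Zic1 ranged over 1.49 to 31.1 FPKM across all libraries.

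Differences were measured in 2 ways, both computed over all genes tested. A gene was called when limma's test on log2(FPKM + 0.1) gave a Benjamini-Hochberg adjusted p below 0.05, which 2 of 15471 genes reached (0.0129%), and genes were also counted when the libraries of the genotypes did not overlap. Every Tshr-/- library lay below every wild-type library for 273 genes (1.76%) and above it for 141 genes (0.911%). None of the 8 genes was called by limma, whose adjusted p ran from 0.136 to 0.987; 3 lay below 0.05 before adjustment, all lower, and limma voom on rebuilt reads called 0 with 2 below 0.05. Over all tested genes the unadjusted limma p lay below 0.05 for 13.0%, lower in Tshr-/- for 8.38% and higher for 4.65% (13.1% in all by limma voom), and the counts given for each list below are to be read against these shares. Fold changes on the log2(FPKM + 0.1) scale understate those of weakly expressed genes. The deposited values are not plain FPKM. They stood at 0.945 to 0.999 times the value given by reads, gene length and total reads in the Tshr-/- libraries and at 0.997 to 1.06 times in the wild-type libraries. Scaling by total reads instead, an alternative chosen after seeing the data, moved the median log2 difference of all tested genes from -0.01 to 0.058 and the share of genes lower in Tshr-/- from 53.3% to 33.7%. It called 2 lower and 6 higher genes, against 2 lower and 0 higher. Directions of small differences below therefore hold for the deposited scale. In bulk tissue, fewer cells of a type and less RNA per cell cannot be told apart.

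Before any fold change, the levels per transcript length gave the order of the 8 genes. Os9 was the highest, followed by Vcp, Derl1, Sel1l, Herpud1, Syvn1, Edem1 and Derl2. Os9 lay at the 95.5th percentile of the tested genes and Derl2 at the 37.6th. The ranges over libraries of the neighbours Derl1 and Sel1l overlapped, as did those of Sel1l and Herpud1 and of Edem1 and Derl2. Compared within each library, Derl1 was above Sel1l in 10 of 10, Sel1l above Herpud1 in 9 of 10 and Edem1 above Derl2 in 6 of 10, so the last of these pairs has no settled order. Added together, the 8 genes gave 180.8 ± 6.22 FPKM in Tshr-/- (range 173.5 to 186.0) and 185.7 ± 4.04 FPKM in wild type (179.1 to 189.8; SD, n = 5 each), ranges that overlap.

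**Figure D1:**
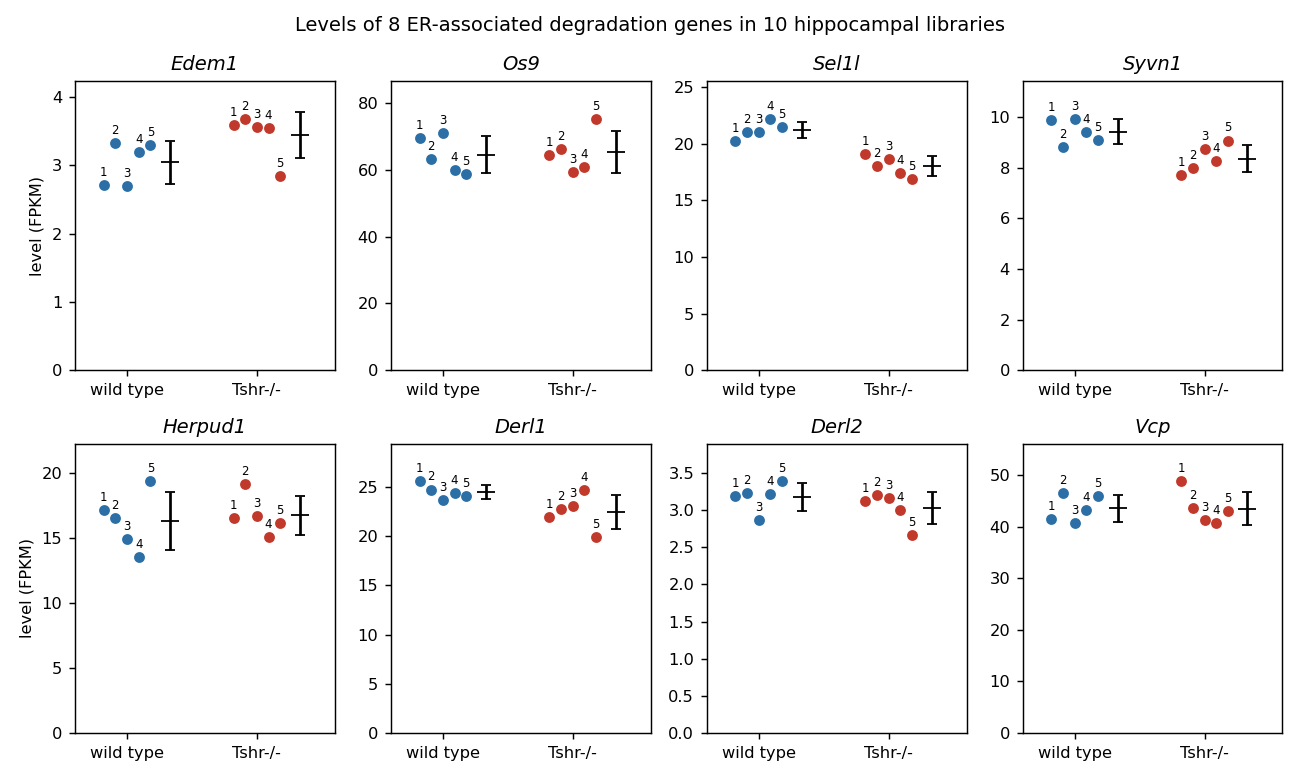
FPKM of each of the 8 genes in the 5 Tshr-/- and the 5 wild-type libraries, 1 point per library, with the group mean and SD. On the deposited scale the groups are apart for Sel1l and overlap for the other 7 genes.

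Recognition of the misfolded glycoprotein rests on Edem1 and Os9. Edem1, a mannosidase-like protein that marks glycoproteins for disposal, lies at chr6:108828641-108859356 (plus strand, ENSMUSG00000030104; mm10 for all genes). It stood at 3.59, 3.68, 3.56, 3.54 and 2.84 FPKM in Tshr-/- libraries 1 to 5 and at 2.71, 3.32, 2.69, 3.19 and 3.29 FPKM in wild-type libraries 1 to 5. Tshr-/- libraries 1 to 4 lay above every wild-type library and library 5 lay within the wild-type range. The means were 3.44 ± 0.342 and 3.04 ± 0.315 FPKM (SD, n = 5 each), 0.17 ± 0.093 apart on the log2 scale (SE; adjusted p = 0.453 by limma), the only difference of the 8 above 0.1 in the upward direction.

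Os9, at chr10:127095650-127121131 (minus strand, ENSMUSG00000040462), encodes a lectin that hands trimmed glycoproteins to SEL1L. Its values were 64.3, 66.2, 59.4, 60.8 and 75.2 FPKM in Tshr-/- and 69.5, 63.3, 71.0, 60.0 and 58.7 FPKM in wild-type libraries. The libraries of the genotypes were interleaved, with Tshr-/- library 5 the highest of all. The means were 65.2 ± 6.25 and 64.5 ± 5.56 FPKM and the log2 difference was 0.014 ± 0.078 (adjusted p = 0.958), and leaving out Tshr-/- library 5 turned it to -0.04.

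The HRD1 ligase complex is represented by Sel1l, Syvn1 and Herpud1. Sel1l, the scaffold that stabilises HRD1 and receives its clients, lies at chr12:91806043-91849157 (minus strand, ENSMUSG00000020964). Its level was 19.1, 18.0, 18.6, 17.4 and 16.9 FPKM in Tshr-/- libraries 1 to 5 and 20.3, 21.0, 21.0, 22.2 and 21.5 FPKM in wild-type libraries 1 to 5. Every Tshr-/- library was below every wild-type library, the single such gap among the 8 genes. The means were 18.0 ± 0.902 and 21.2 ± 0.710 FPKM, so Tshr-/- stood at 85.0% of wild type (log2 difference -0.23 ± 0.048, unadjusted p = 0.000515, adjusted p = 0.136). It rested on 3987 to 6047 reads a library, and the groups overlapped after quantile normalization and after scaling by total reads (log2 difference -0.16).

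Sel1l was the gene nearest to Tshr among the 8, and its position beside the altered locus cannot be told apart from loss of the receptor in these 2 groups. All 7 hippocampal markers and all 3 endothelial markers were also lower on average in Tshr-/-, and those of meninges, ependyma and thalamus higher; their part in the differences of the 8 genes was not tested. Without Tshr-/- libraries 1, 2 and 4, the highest in thalamic or choroid plexus markers, 2 Tshr-/- libraries remained. The Sel1l difference was then -0.25 and that of Derl1 -0.19, while that of Syvn1 shrank to -0.080 and that of Edem1 to 0.067. Wild-type libraries 2 and 5, with thalamic sums of 66.1 and 89.9 FPKM, stayed in. Tshr-/- libraries 3 and 5 had 33.8 and 31.2 FPKM, so this subset did not even out thalamic content. Among the 6 libraries lowest in thalamic transcripts, which still include Tshr-/- library 4, Sel1l differed by -0.26, Syvn1 by -0.16, Derl1 by -0.13 and Edem1 by 0.20. In those 6 the hippocampal sums were 331 to 404 FPKM in Tshr-/- and 450 to 492 FPKM in wild type. Both subsets were chosen after seeing the data, and neither tests the part of tissue makeup.

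Syvn1, at chr19:6046576-6053712 (plus strand, ENSMUSG00000024807), encodes HRD1 itself, the ubiquitin ligase of the complex. It measured 7.73, 8.01, 8.73, 8.26 and 9.07 FPKM in Tshr-/- and 9.88, 8.80, 9.94, 9.41 and 9.10 FPKM in wild-type libraries. Tshr-/- libraries 1 to 4 lay below every wild-type library, and the overlap came from Tshr-/- library 5 lying above wild-type library 2. The means were 8.36 ± 0.544 and 9.43 ± 0.492 FPKM (88.7% of wild type; log2 difference -0.17 ± 0.059, adjusted p = 0.272; -0.10 with scaling by total reads). Divided by Syvn1, Sel1l came to 2.17 ± 0.225 in Tshr-/- against 2.26 ± 0.159 in wild type, with overlapping ranges (1.86 to 2.48 and 2.05 to 2.39). The Syvn1 record shares 83 bases with Mrpl49, a mitochondrial ribosomal protein gene on the other strand that stood at 20.9 ± 0.705 and 21.8 ± 1.89 FPKM, and holds Mir6988, listed at 0. The library kit does not mark strand, so reads in shared bases cannot be assigned.

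Herpud1, at chr8:94386438-94395377 (plus strand, ENSMUSG00000031770), encodes a short-lived membrane protein that joins HRD1 to the derlins and is a classic target of the unfolded protein response. It read 16.6, 19.2, 16.7, 15.1 and 16.2 FPKM in Tshr-/- and 17.2, 16.5, 14.9, 13.6 and 19.4 FPKM in wild-type libraries. The groups were fully interleaved, with both the lowest and the highest library in the wild-type group. The means were 16.7 ± 1.5 and 16.3 ± 2.21 FPKM and the log2 difference was 0.044 ± 0.096 (adjusted p = 0.877), which turned below 0 without Tshr-/- library 2 (-0.0061) or wild-type library 4 (-0.02). The antisense record Gm15890, which overlaps it by 535 bases, was below 0.1 FPKM in both group means.

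Promoters of the HRD1 complex genes differ in their exact matches to the stress-response letters searched. The 250 bases before each RefSeq start (GRCm38.p6) are printed to show where the 3 genes differ. Capitals mark the ER stress response element (ERSE: CCAAT, any 9 bases, then CCACG) in Syvn1, the related ERSE-II (ATTGG, any base, then CCACG) and, on the opposite strand, the amino acid response element TGATGCAA in Herpud1. Sel1l has no capitals because no exact match was found in its window, chr12:91849158-91849407 on the minus strand. Near matches were not searched, so the absence of an ER stress element is not shown. Syvn1 is chr19:6046326-6046575 and Herpud1 chr8:94386179-94386428, both on the plus strand.
Sel1l: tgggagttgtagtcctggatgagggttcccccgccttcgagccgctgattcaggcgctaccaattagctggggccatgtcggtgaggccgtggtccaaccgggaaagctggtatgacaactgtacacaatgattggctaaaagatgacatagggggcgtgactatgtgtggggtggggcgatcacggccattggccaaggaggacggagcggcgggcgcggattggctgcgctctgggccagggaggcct
Syvn1: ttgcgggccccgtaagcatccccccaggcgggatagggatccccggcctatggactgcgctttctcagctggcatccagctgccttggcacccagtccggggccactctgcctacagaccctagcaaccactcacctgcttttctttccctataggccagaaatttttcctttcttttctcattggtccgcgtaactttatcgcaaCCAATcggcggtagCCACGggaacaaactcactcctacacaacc
Herpud1: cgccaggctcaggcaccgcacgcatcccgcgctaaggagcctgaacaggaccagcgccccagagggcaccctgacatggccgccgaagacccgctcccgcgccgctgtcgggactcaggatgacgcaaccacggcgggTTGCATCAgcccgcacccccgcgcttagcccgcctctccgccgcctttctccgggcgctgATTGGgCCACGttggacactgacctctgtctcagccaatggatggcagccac

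Derl1 and Derl2 encode derlins, multispan membrane proteins that thin the membrane around the HRD1 channel. Derl1 (chr15:57869502-57892418, minus strand, ENSMUSG00000022365) stood at 22.0, 22.7, 23.1, 24.7 and 19.9 FPKM in Tshr-/- and at 25.6, 24.7, 23.7, 24.4 and 24.1 FPKM in wild-type libraries. Tshr-/- libraries 1, 2, 3 and 5 lay below every wild-type library and library 4 lay within the wild-type range. The means were 22.5 ± 1.73 and 24.5 ± 0.706 FPKM (91.7% of wild type; log2 difference -0.13 ± 0.057, unadjusted p = 0.0497, adjusted p = 0.382; -0.057 with scaling by total reads).

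Derl2 (chr11:71007164-71019841, minus strand, ENSMUSG00000018442) stood beside Edem1 at the low end of the 8 genes, at 3.12, 3.20, 3.16, 3.00 and 2.66 FPKM in Tshr-/- and 3.19, 3.23, 2.86, 3.22 and 3.39 FPKM in wild-type libraries. Only Tshr-/- library 5 lay below every wild-type library. The means were 3.03 ± 0.219 and 3.18 ± 0.192 FPKM (log2 difference -0.068 ± 0.070, adjusted p = 0.712; 0.0001 with scaling by total reads). Its record shares 231 bases with Mis12, a kinetochore gene that stood at 5.78 ± 0.623 and 5.78 ± 0.788 FPKM.

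Vcp, at chr4:42979963-43000507 (minus strand, ENSMUSG00000028452), encodes the p97 ATPase that extracts ubiquitinated clients from the membrane. Its values were 48.8, 43.6, 41.4, 40.7 and 43.1 FPKM in Tshr-/- and 41.5, 46.6, 40.7, 43.2 and 45.9 FPKM in wild-type libraries. The groups were interleaved, with Tshr-/- library 1 the highest of all 10. The means were 43.5 ± 3.18 and 43.6 ± 2.59 FPKM and the log2 difference was -0.0034 ± 0.062 (adjusted p = 0.987), the smallest of the 8 in size. It turned positive under quantile normalization (0.072), scaling by total reads (0.066), limma voom (0.013) and without several single libraries. Vcp-rs, a record on the X chromosome labelled a processed pseudogene, was listed at 14.7 ± 2.01 and 12.4 ± 1.87 FPKM (log2 difference 0.25 ± 0.11, adjusted p = 0.382). Its likeness to Vcp was not measured, so the division of reads between the 2 records, and with it the Vcp level, is uncertain. The record 1700022I11Rik overlaps Vcp by 3678 bases and was below 0.1 FPKM in both group means. In the Vcp promoter, capitals mark the unfolded protein response element (UPRE) TGACGTGG within 48 bases of chr4:43000594-43000641, minus strand.
Vcp: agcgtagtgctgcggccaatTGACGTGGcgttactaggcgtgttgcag

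The 4 motifs were searched as exact matches on both strands in all 32851 RefSeq promoter windows of 250 bases before to 50 bases after the start. ERSE was present in 39 windows (0.119%), ERSE-II in 12 (0.0365%), UPRE in 222 (0.676%) and the amino acid response element in 294 (0.895%). ERSE, ERSE-II and UPRE share the letters CCACG on one strand, so 1 stretch can match more than one of them. Of the 8 genes 7 had an entry: Syvn1 held an ERSE, Herpud1 an ERSE-II and an amino acid response element, Vcp a UPRE, and Sel1l, Edem1, Os9 and Derl2 held none of the 4. The Syvn1 ERSE covers chr19:6046532-6046550, 26 to 44 bases before the start, and the Herpud1 ERSE-II chr8:94386377-94386387, 42 to 52 bases before it. A match is a stretch of letters and says nothing of factor binding in these mice.

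ERSE letters were found in 7 of the 13 ER chaperone genes with an entry, against 1 of 38 other genes of ER-associated degradation (Derl3). The matches are printed on the motif's own strand, with the fixed bases in capitals. They set the Syvn1 element beside Derl3 and 4 of the 7 chaperone genes, those with the smallest limma p between genotypes. The matches of Hsp90b1, Canx and Dnajc3 are not printed. On GRCm38.p6 the other 5 printed matches lie at chr8:84847075-84847093 (Calr), chr12:17266491-17266509 (Pdia6), chr2:34772025-34772043 (Hspa5), chr15:88819520-88819538 (Creld2) and chr10:75893242-75893260 (Derl3).
Syvn1: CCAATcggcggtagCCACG
Calr: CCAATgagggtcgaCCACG
Pdia6: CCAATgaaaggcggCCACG
Hspa5: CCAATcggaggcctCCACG
Creld2: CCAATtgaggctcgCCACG
Derl3: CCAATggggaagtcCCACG
Among the 17 tested genes with an ERSE promoter, 9 were lower and 8 higher in Tshr-/-, with a median log2 difference of -0.065 against -0.01 over all tested genes (0.0048 against 0.058 with scaling by total reads). None was called by limma, and 6 lower and 2 higher genes lay below 0.05 before adjustment (47.1%, against 13.0% of all tested genes; 9 by limma voom, 6 of them lower, with 0 called). By limma the 6 lower genes were Syvn1 and 5 chaperone genes, taken from lists compiled with earlier results known. The 47.1% is therefore not independent evidence of a direction. The 2 higher genes, in none of the lists, were Zfp57 (0.47) and Acacb (0.50), named after their values were seen. In 5 of the 17 every Tshr-/- library lay below every wild-type library (1.76% of all tested genes), and these 5, named after their values were seen, were the chaperone genes Calr, Pdia6, Hspa5, Creld2 and Hsp90b1, with log2 differences of -0.37, -0.37, -0.34, -0.30 and -0.20. Syvn1, at -0.17, came next to them, while Derl3 stood at -0.60 from a level below 1 FPKM. Canx and Dnajc3, the remaining chaperone genes with an ERSE, stood at 0.032 and -0.0645.

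**Figure D2:**
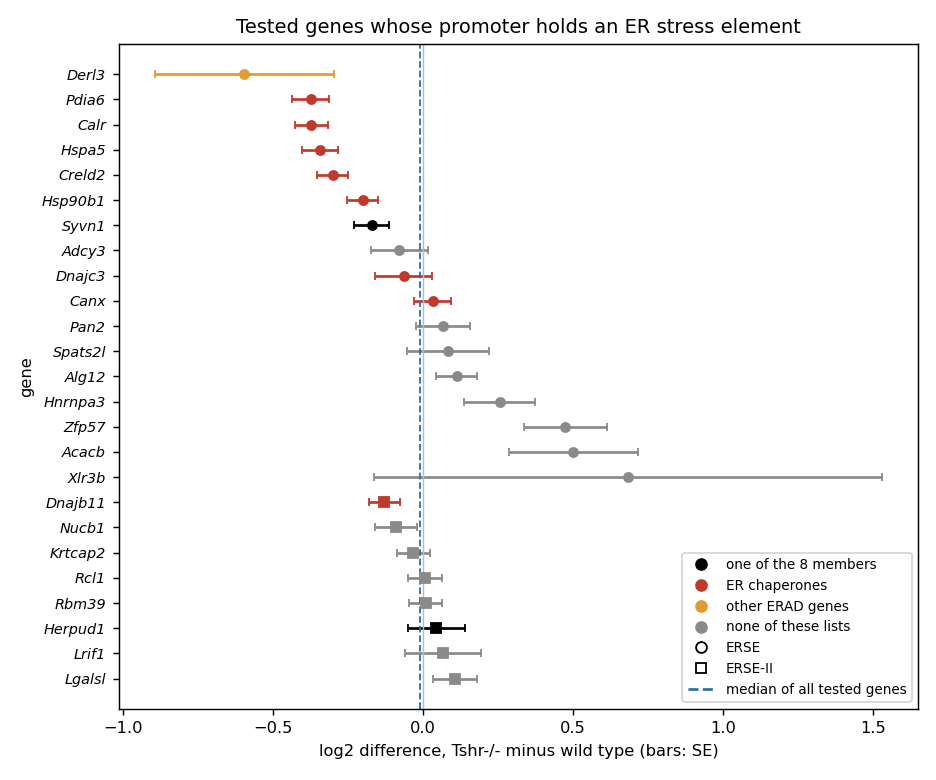
Log2 difference (Tshr-/- minus wild type, bars SE, n = 5 each) of every tested gene whose promoter holds an ERSE or an ERSE-II. Calr and Pdia6 lie at -0.37, Syvn1 at -0.17 and Herpud1 at 0.044.

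Beyond the 8 genes, the 48 other genes of ER-associated degradation had no common direction. All 48 passed the expression filter; 26 were lower and 22 higher in Tshr-/-, with a median log2 difference of -0.015, and 53.3% of all tested genes were lower. With scaling by total reads 15 were lower and 33 higher (median 0.055, against 0.058 over all tested genes). None was called by limma, 5 lower and 2 higher genes lay below 0.05 before adjustment (14.6%, against 13.0% of all tested genes; 5 in all by limma voom, which also called 0). The genotypes did not overlap for Ube2g2, Ubxn4 and Usp25, all lower (6.25% of the 48, against 1.76% of all tested genes).

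Recognition and mannose trimming counted 2 lower and 6 higher genes of 8, with a median of 0.076. With scaling by total reads 1 was lower and 7 higher (median 0.145, against 0.058 over all tested genes). The co-chaperone gene Dnajc10 (ERdj5, a disulfide reductase for clients) stood at 12.01 ± 1.05 and 10.4 ± 0.594 FPKM (log2 difference 0.21 ± 0.067, adjusted p = 0.259). The lectin gene Erlec1, a relative of Os9, stood at 8.71 ± 0.892 and 7.52 ± 0.534 FPKM (0.21 ± 0.079, adjusted p = 0.312). Edem2, which starts mannose trimming, stood at 5.78 ± 0.551 and 6.21 ± 0.482 FPKM (-0.10 ± 0.078, adjusted p = 0.595).

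In the HRD1 complex and its ubiquitin-conjugating enzymes, 8 of 10 genes were lower, with a median of -0.048 (4 of 10 and 0.021 with scaling by total reads). Ube2g2, the conjugating enzyme that works with membrane ligases, stood at 24.4 ± 1.53 and 28.9 ± 2.18 FPKM without overlap (log2 difference -0.24 ± 0.064, adjusted p = 0.187). Fam8a1, a membrane partner of HRD1, stood at 34.1 ± 3.42 and 40.3 ± 3.86 FPKM (-0.24 ± 0.086, adjusted p = 0.283). Derl3, the derlin of secretory tissues, was near the floor at 0.431 ± 0.127 and 0.730 ± 0.292 FPKM (-0.60 ± 0.30, adjusted p = 0.422; -0.26 with a pseudocount of 1 and -0.69 with 0.01). This subgroup contains some partners of the SEL1L-HRD1 complex, while Os9, Herpud1, Derl1 and Derl2 are among the 8 genes. None of its members was called.

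The other membrane ligases and their partners were divided, with 5 lower and 6 higher of 11 (median 0.017; 3 lower and 8 higher with scaling by total reads). The conjugating enzyme gene Ube2j2 stood at 8.38 ± 0.430 and 9.22 ± 0.467 FPKM (log2 difference -0.14 ± 0.054, adjusted p = 0.336). The ligase gene March6 stood at 44.2 ± 2.66 and 42.1 ± 1.61 FPKM (0.070 ± 0.052), and Erlin2, whose product recruits a ligase to inositol trisphosphate receptors, at 9.62 ± 0.959 and 8.999 ± 0.333 FPKM (0.091 ± 0.069).

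Among 19 genes of extraction and delivery, the step of Vcp, 11 were lower and 8 higher (median -0.026; 7 lower and 12 higher with scaling by total reads). The deubiquitinase gene Usp25 stood at 8.54 ± 0.609 and 10.2 ± 0.572 FPKM without overlap (log2 difference -0.26 ± 0.062, adjusted p = 0.175). Ubxn4, encoding a membrane anchor for VCP, stood at 17.5 ± 0.477 and 18.7 ± 0.350 FPKM without overlap (-0.090 ± 0.039, adjusted p = 0.368). Ubl4a, part of the complex that shields extracted membrane proteins, stood at 23.8 ± 1.81 and 26.2 ± 2.06 FPKM (-0.14 ± 0.070, adjusted p = 0.416).

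The 3 neighbouring lists set the scale. Of 16 ER chaperone genes, 13 were lower and 3 higher (median -0.17), 11 had an unadjusted p below 0.05 (68.8%, against 13.0% of all tested genes) and 9 (56.2%, against 1.76%) had no overlap between genotypes, all lower, while none was called by limma or by limma voom (10 below 0.05). Calr, the calcium-binding lectin chaperone calreticulin, stood at 78.0 ± 3.49 and 101.0 ± 6.15 FPKM (log2 difference -0.37 ± 0.054, adjusted p = 0.0502), and Pdia6, a disulfide isomerase gene, at 23.7 ± 0.749 and 30.8 ± 2.67 FPKM (-0.37 ± 0.062, adjusted p = 0.0665). Calr passed the threshold under 4 of the alternative settings. With scaling by total reads 11 chaperone genes were lower and 5 higher (median -0.10). For the 8 degradation genes the median was -0.036, with 5 lower and 3 higher (0.033, with 3 lower and 5 higher, by total reads). The chaperone list was compiled with its lower level in these libraries already known, so its count is not independent evidence of a direction.

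Of 12 sensors and factors of the unfolded protein response, 11 were tested and 9 were lower (median -0.053; 5 lower and 6 higher with scaling by total reads), with 1 unadjusted p below 0.05 and none called by limma or limma voom. Atf6b, a membrane-bound relative of the sensor ATF6, stood at 37.8 ± 6.33 and 47.9 ± 6.49 FPKM (log2 difference -0.34 ± 0.12, adjusted p = 0.293). Xbp1, whose spliced form drives many degradation genes, stood at 18.2 ± 1.38 and 20.7 ± 2.30 FPKM (-0.18 ± 0.084, adjusted p = 0.384). Gene-level values do not separate its spliced form.

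The proteasome, the end point of the pathway, was evenly divided: of 39 genes, 37 were tested, 18 lower and 19 higher (median 0.0080; 4 lower and 33 higher with scaling by total reads), with 1 unadjusted p below 0.05 and none called by limma or limma voom. Psmd10 stood at 8.67 ± 0.929 and 9.78 ± 0.672 FPKM (log2 difference -0.18 ± 0.079, adjusted p = 0.378) and Psmd7 at 39.2 ± 1.65 and 41.5 ± 1.6 FPKM (-0.082 ± 0.047, adjusted p = 0.482).

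**Figure D3:**
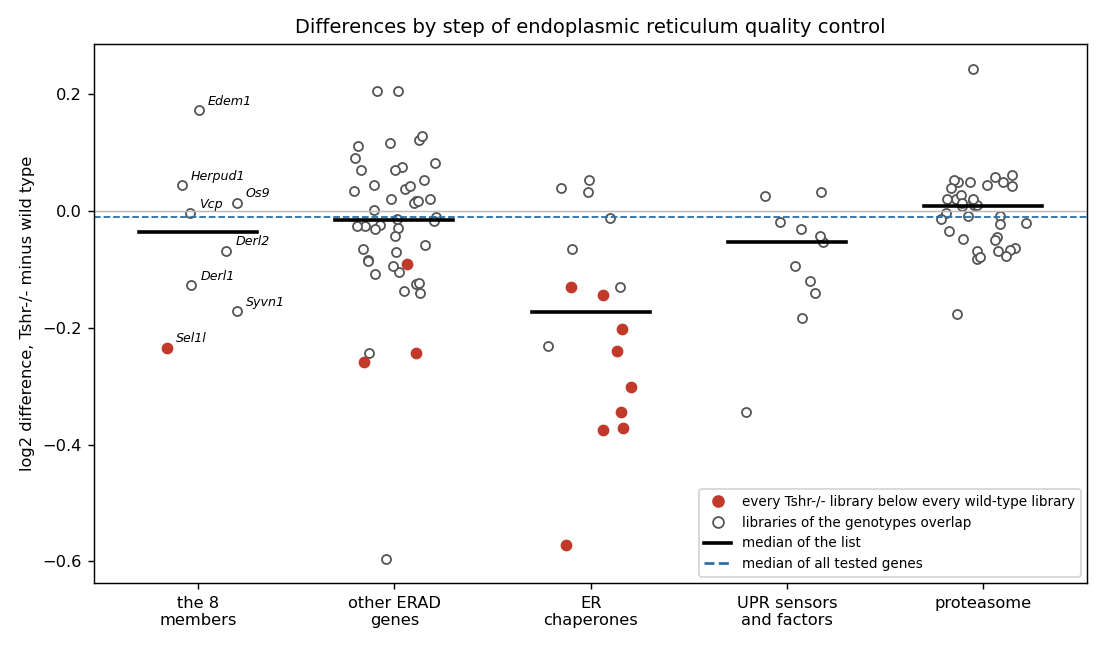
Log2 difference (Tshr-/- minus wild type) of each tested gene among the 8 degradation genes, the other degradation genes and the 3 neighbouring lists. The other degradation genes are pooled over their steps, and the median of each list is drawn. The chaperone median lies at -0.17 and the medians of the 8 genes and of the proteasome at -0.036 and 0.0080.

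Because Sel1l lies 0.256 Mb from Tshr, the tested genes around the locus are set beside it. Gtf2a1, a general transcription factor gene 0.005 Mb away, stood at 5.35 ± 0.328 and 5.95 ± 0.337 FPKM (log2 difference -0.15 ± 0.060, adjusted p = 0.329). Ston2, an endocytic adaptor gene 0.083 Mb away, differed by -0.13 ± 0.093, and the small nucleolar RNA gene Gm25776 at 0.024 Mb by 0.50 ± 0.68 (1.10 with a pseudocount of 0.01 and 0.13 with 1). On the other side, Dio2, which encodes the deiodinase that activates thyroid hormone in the brain, stood at 6.46 ± 0.874 and 7.65 ± 0.187 FPKM (-0.25 ± 0.087, adjusted p = 0.278), the synaptic adhesion gene Nrxn3 differed by -0.10 and Adck1, a mitochondrial kinase-like gene, by -0.025. Sel1l was the only one of these nearest genes without overlap between the genotypes.

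Within 5 Mb of Tshr, 27 genes were tested and 13 were lower and 14 higher (median 0.026); none was called by limma, 9 lay below 0.05 before adjustment (33.3%, against 13.0% of all tested genes; 9 by limma voom, which also called 0). There was no overlap for 3 genes in the lower direction, Sel1l, Tmed8 and Ahsa1 (11.1%, against 1.76%). In the higher direction there were 2, Ngb and Gstz1 (7.41%, against 0.911%). Apart from Sel1l these were named after their values were seen. Log2 differences were 1.51 for Ngb and 0.33 for Gstz1 (adjusted p = 0.0603 and 0.0709 by limma). They were -0.26 for Tmed8 and -0.24 for Ahsa1 (adjusted p = 0.143 and 0.173 by limma). Within 1 Mb, 4 of 5 tested genes were lower (median -0.15), and within 10 Mb 61 of 119 (median -0.0078). With scaling by total reads, 11 genes within 5 Mb were lower and 16 higher (median 0.093). Within 1 Mb 4 of 5 were then lower (median -0.084) and within 10 Mb 43 of 119 (median 0.061). The median over all tested genes was 0.058 on that scale.

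**Figure D4:**
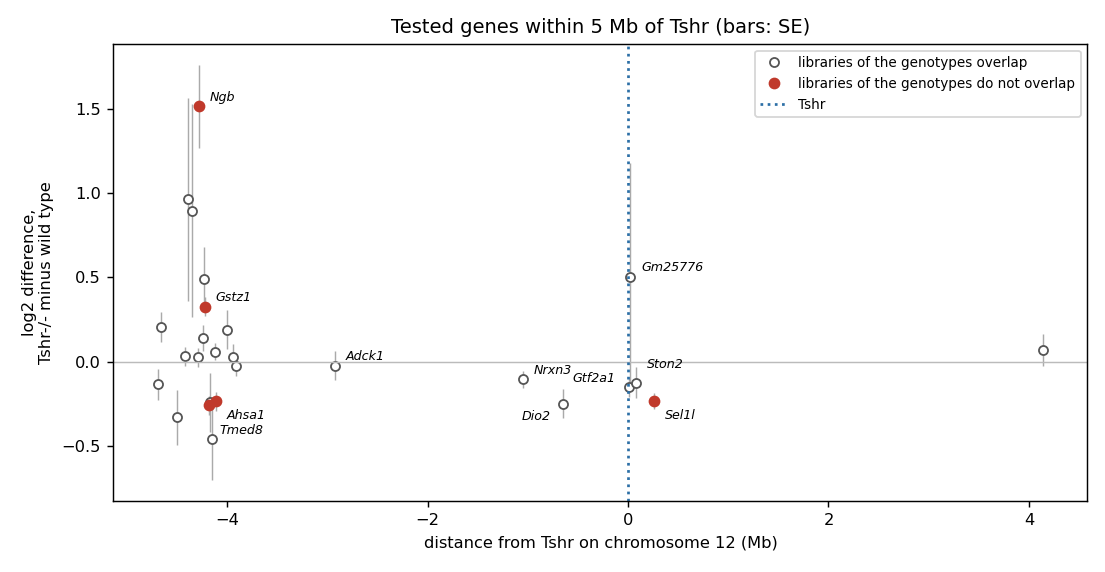
Log2 difference (Tshr-/- minus wild type, bars SE) of tested genes within 5 Mb of Tshr, by distance from Tshr in Mb. Sel1l is at -0.23, and filled points mark the genes whose genotypes do not overlap.

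The 8 genes did not vary together from library to library. With each genotype's mean taken away, the 28 pairs gave 13 positive and 15 negative Pearson correlations across the 10 libraries, from -0.863 to 0.862 with a median of -0.024. These are descriptions over libraries that share tissue makeup and scaling. Edem1 and Derl2 were the most alike (r = 0.862), Os9 and Edem1 the most opposed (-0.863), followed by Syvn1 and Edem1 (-0.838) and Os9 and Derl2 (-0.784). Sel1l and Syvn1, whose proteins form 1 complex, had r = -0.531 within genotypes and 0.533 when the genotypes were pooled.

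Tshr-/- library 5 carried part of this pattern, being the lowest of its group for Sel1l, Derl1, Derl2 and Edem1 and the highest for Os9 and Syvn1. Without it, Edem1 and Derl2 had r = 0.718, Os9 and Edem1 -0.751, Syvn1 and Edem1 -0.755, Os9 and Derl2 -0.595 and Sel1l and Syvn1 -0.302, over 9 libraries. Not every pair weakened: Vcp and Syvn1 went from -0.762 to -0.892, and Derl1 and Sel1l from 0.088 to -0.762. The pairwise range was then -0.892 to 0.718.

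**Figure D5:**
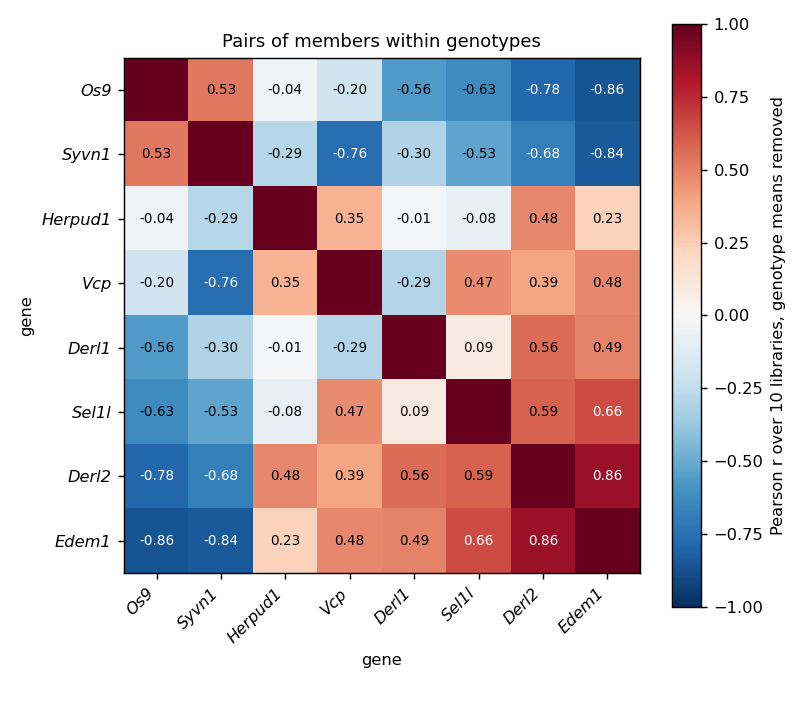
Pearson r of each of the 28 pairs among the 8 genes over the 10 libraries after each genotype's mean was taken away. Edem1 with Derl2 reaches 0.862 and Os9 with Edem1 -0.863.

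The genes whose profile was most like the mean standardised profile of the 8 over the 10 libraries were Rgs7bp (r = 0.961), Mbnl1 (0.941), Gm15489 (0.933), Usp31 (0.924) and St13 (0.923). With genotype means taken away they were Srp72 (0.969), Ahcyl1 (0.957), Rgs7bp (0.957), Gcc2 (0.952) and Acer3 (0.949). Rgs7bp alone was in both lists. These genes were picked as the highest of all other tested genes over only 10 libraries. Because the 8 genes did not vary together, their mean profile stands for no shared pattern, and the lists are description only.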

How the data were processed

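Hippocampal RNA libraries, 5 from Tshr-/- and 5 from wild-type mice, were compared by the genotype in the labels. The authors deposited 1 table of FPKM for 52636 genes. Per the submitters' processing notes, reads were aligned to mm10 with HISAT2 2.0.5 and counted with featureCounts 1.5.0-p3; neither states the annotation release. Every column was used (0 unused).

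From the deposited FPKM, log2(FPKM + 0.1) was tested with limma 3.58.1 (R 4.3.3, empirical Bayes with a trend) over genes with a mean of at least 0.5 FPKM, with Benjamini-Hochberg adjustment over all 15471. FPKM times gene length gave whole reads within 0.01, and limma voom with TMM scaling on these reads was an alternative. Median-ratio factors of the deposited values were the same in every library, so that scaling changed nothing and the values are not plain depth-scaled FPKM. FPKM recomputed with the total reads of each library was an alternative added after seeing the data. Depth was 23899650 to 33529811 reads a library. The threshold was an adjusted p of 0.05. Alternatives were other pseudocounts, filters, scalings and variance models, protein-coding genes alone, a replicate block and each library left out. Promoter sequences are from RefSeq (GRCm38.p6); Derl1 had no entry.

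The 8 genes, the lists, the tests and the alternatives were chosen with earlier results of these data known. Beside the 8 genes, the text names the 3 genes of smallest p in each degradation subgroup, the 2 of smallest p in each neighbouring list, Tshr with 3 tested neighbours either way, the 5 most alike by profile, overlapping records, and Ttr and Zic1. Others are named where stated.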

Additional observations from a re-analysis of the deposited data

Results flagged for a closer look

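Within the 5 libraries of each genotype, the named genes were searched for a library standing apart from the other 4 by Dixon's criterion. Over 32 genes and 64 groups, 3 groups had one, and chance gives about 1 group in 20. Edem1 was lowest in Tshr-/- library 5, at 2.84 FPKM, with the other Tshr-/- libraries at 3.54 to 3.68 FPKM. Fam8a1 was lowest in Tshr-/- library 4, at 28.2 FPKM, with the others at 34.7 to 37.3 FPKM. Adck1 was lowest in wild-type library 5, at 4.63 FPKM, with the others at 5.67 to 5.92 FPKM.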

How the results depend on the processing

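None of the 8 genes was called under any of 24 alternatives, and Sel1l (log2 difference -0.26 to -0.16, adjusted p 0.109 to 0.412), Syvn1 (-0.20 to -0.080), Derl1 (-0.19 to -0.055) and Edem1 (0.067 to 0.24) kept their sign in all of them. Filters, variance models, protein-coding genes alone, the replicate block and median-ratio scaling left these differences as they were, so no sign could change there. The number of genes called over the whole table, 2, became 14 with a pseudocount of 0.01, 7 with no filter, 13 with a mean of at least 1 FPKM, 4 with quantile normalization, 6 with limma voom, 1 with no variance trend, 13 with robust variances, 17 with protein-coding genes alone, and 0 without Tshr-/- libraries 1, 2 and 4 (chosen after seeing the data). Leaving out 1 library at a time gave 0 to 9: without Tshr-/- library 1, 2, 3 or 5 it was 1, 0, 4 or 9, and dropping wild-type library 2, 3, 4 or 5 left 0, 0, 0 or 1. Calr was called with a pseudocount of 0.01, a mean of at least 1 FPKM, robust variances and protein-coding genes alone (adjusted p 0.0470, 0.0416, 0.0499 and 0.0321). Differences near 0 changed sign. For Vcp these were 0.072 with quantile normalization, 0.013 with limma voom, and 0.014 and 0.020 without Tshr-/- library 3 or 4 and 0.021 and 0.016 on dropping wild-type library 2 or 5 (leave-one-out range -0.045 to 0.021). Os9 gave -0.039 without Tshr-/- library 5, -0.011 and -0.019 on dropping wild-type library 4 or 5 (range -0.039 to 0.050), and -0.042 in the 6 libraries lowest in thalamic transcripts (chosen after seeing the data). Herpud1 gave -0.0061 without Tshr-/- library 2 and -0.020 on dropping wild-type library 4 (range -0.020 to 0.11), Adck1 0.019 without Tshr-/- library 1 (range -0.089 to 0.019), Gm25776 -0.061 without wild-type library 3 (range -0.061 to 0.84), and without Tshr-/- libraries 1, 2 and 4 Adck1 gave 0.070 and Erlin2 -0.050. Erlin2 gave -0.0058 in the 6 libraries. Scaling by total reads (chosen after seeing the data), which moved the median of all tested genes to 0.058, called 8 genes and gave Vcp 0.066, Derl2 0.0001, Adck1 0.044, and medians of 0.033 for the 8 genes, 0.055 for the other degradation genes, -0.10 for the chaperones, 0.017 for the unfolded protein response, 0.077 for the proteasome and 0.0048 for ERSE genes. Quantile normalization moved the medians of the other degradation genes to 0.021, of the chaperones to -0.11 and of the proteasome to 0.057. Without Tshr-/- libraries 1, 2 and 4 the chaperone median was -0.22. The ERSE median ran from -0.076 to 0.0036 with 1 library left out, being 0.0036 and 0.0020 without Tshr-/- library 4 or 5. The median near Tshr was -0.15 within 1 Mb and -0.0078 within 10 Mb. The cause of these shifts was not tested. Libraries of the same replicate number were correlated at -0.063, 0.297, 0.0762, 0.169 and -0.0651 in their deviations, and only numbers 2 and 4 matched their own number best, so the numbers do not pair the samples; with the replicate block 3 genes were called and Sel1l had an adjusted p of 0.199. Of the main results 186 were within their limits and 32 were not, and of single genes 740 were unchanged in call and sign, 4 gained a call and 20 changed sign. The 186 and the 740 include the settings that left differences as they were. Edem1 and Derl2 rested on the fewest reads of the 8 genes, 399 to 721 and 529 to 874 a library.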

Other observations

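Of 112 tested genes with a UPRE promoter, Vcp among them, 55 were lower and 57 higher in Tshr-/- (median log2 difference 0.00040). Of 73 with the amino acid response element, Herpud1 among them, 43 were lower and 30 higher (median -0.021), and of 8 with an ERSE-II, also including Herpud1, 3 were lower and 5 higher (median 0.0074). None of these genes was called by limma, and 14 of 112, 8 of 73 and 1 of 8 had an unadjusted p below 0.05, against 13.0% of all tested genes.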
